A study of Mus musculus with 6 samples.

Results

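The 10 genes described here encode receptors through which neutrophils sense chemoattractants. They are the chemokine receptor genes Cxcr1, Cxcr2, Cxcr4, Ccr1 and Ccr2, the formyl peptide receptor genes Fpr1 and Fpr2, the complement C5a receptor gene C5ar1 and the lipid mediator receptor genes Ltb4r1 and Ptafr. They were taken by name from 38887 gene identifiers, and all 10 were among the 12259 genes with enough counts to be tested. RNA was measured in bone marrow cells from naive mice and from mice 1 week and 3 weeks after LL2 cells had been given, called one-week and three-week LL2 mice, with 2 libraries per group that the labels number as replicate mice. LL2 is a Lewis lung carcinoma line, and according to the study's methods it carried luciferase and was injected into the vein, from where it grows in the lung. The naive mice received no tumor. The methods list C57BL/6N and C57BL/6 mice, female or of both sexes and bought as young adults, without saying which of them gave these 6 libraries. Cells were taken with beads against Ly6G, a surface protein of mouse neutrophils, at a high purity per the labels. In such bulk samples, fewer cells of a type and less RNA per cell cannot be told apart.

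Chemoattractant receptors span the membrane repeatedly and act mainly through heterotrimeric G proteins of the Gi class, whose βγ subunits start the polarisation and crawling of the cell. In the bone marrow, CXCR4 and its ligand CXCL12 hold neutrophils back, whereas CXCR2 and its ligands, among them CXCL1 and CXCL2, draw them out into the blood. Formyl peptides, C5a, leukotriene B4 and platelet-activating factor guide neutrophils in tissue. In LL2 mice the study tested spontaneous migration and migration towards the chemokine CXCL1. Both were higher than in control cells at the earlier time after injection and not at the later time. The study also injected mixed cells of LL2 and control mice into tumor-free recipients. In spleen and lung, cells of the earlier time were more frequent than control cells. At the later time the ratio to control cells was markedly lower. Among its mice, the formyl peptide fMLP was used on cells of other tumor models. Surface CXCR1 and CXCR2 were measured in its genetically engineered tumor models, with little or no difference from tumor-free mice. The receptor genes bear on whether the cells of the groups sequenced here carried different amounts of receptor transcripts. Migration and surface protein were not analysed here.

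The receptor genes lie in part next to each other. Cxcr2 (ENSMUSG00000026180, chromosome 1, 74153989 to 74161246, plus strand of GRCm38, the build also called mm10) and Cxcr1 (ENSMUSG00000048480, 74191785 to 74194631, minus strand) are 30538 bases apart. Fpr1 (ENSMUSG00000045551, chromosome 17, 17876471 to 17883940, minus strand) and Fpr2 (ENSMUSG00000052270, 17887824 to 17893952, plus strand) are 3883 bases apart, and 48 exon bases of Fpr2 are also annotated to Fpr3 on the same strand, which had 0 counts in all libraries. Ccr1 and Ccr2 are both on chromosome 9, with 133257 bases between them. Cxcr4 (ENSMUSG00000045382, chromosome 1, 128588199 to 128592293, minus strand) is on the same chromosome as Cxcr1 and Cxcr2 but far from them.

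Promoter sequences were read from RefSeq tables of GRCm38.p6, which held all 10 genes, over the 250 bases before each start site. The windows of Cxcr4, Cxcr2 and Cxcr1 are shown because these genes had the largest falls and rises described below, with every CpG dinucleotide in capitals and written 5′ to 3′ on the gene's strand. They lie at chr1:128592300-128592549 (minus strand), chr1:74153744-74153993 (plus strand) and chr1:74194632-74194881 (minus strand).
Cxcr4: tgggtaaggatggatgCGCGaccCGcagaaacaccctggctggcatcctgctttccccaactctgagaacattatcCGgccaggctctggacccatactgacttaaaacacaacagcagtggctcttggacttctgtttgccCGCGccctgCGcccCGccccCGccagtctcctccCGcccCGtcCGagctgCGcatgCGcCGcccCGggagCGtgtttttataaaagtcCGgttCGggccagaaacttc
Cxcr2: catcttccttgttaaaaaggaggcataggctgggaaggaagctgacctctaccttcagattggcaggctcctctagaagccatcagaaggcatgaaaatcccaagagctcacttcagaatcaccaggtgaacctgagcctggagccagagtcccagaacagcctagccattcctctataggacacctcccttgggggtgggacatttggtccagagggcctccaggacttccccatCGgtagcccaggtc
Cxcr1: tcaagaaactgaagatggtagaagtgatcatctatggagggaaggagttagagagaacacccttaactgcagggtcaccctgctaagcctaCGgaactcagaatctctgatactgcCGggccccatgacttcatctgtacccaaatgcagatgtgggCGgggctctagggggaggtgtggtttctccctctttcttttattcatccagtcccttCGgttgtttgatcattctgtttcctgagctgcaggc
The window of Cxcr4 held 19 CpGs and had a GC content of 61.2%. Of 32851 promoters, 19.7% had at least as many CpGs. The window of Cxcr2 held 1 CpG at a GC content of 54.4%, a count that 18.8% of promoters did not exceed, and that of Cxcr1 held 4 at 50%. The other members had between 0 CpGs (Fpr2) and 5 (Ptafr), against a median of 6 over all promoters. The 10 windows were searched on both strands for the letters of 6 motifs. GAGGAAGT, the core bound by PU.1, was in none of them and in 2.44% of all promoters. TTGCNNAA of C/EBP factors (9.56% of all promoters), the motif of NF-kappaB (1.41%), ACGTG of hypoxia response elements (16.6%) and CACGTG, the E-box that contains ACGTG (6.02%), were in none either. TTCNNNGAA of STAT factors, present in 7.02% of promoters, was in the window of Fpr2 alone, as TTCTGGGAA. These are matches of letters, and nothing about a factor follows from a match or its absence.

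The libraries held between 11994158 and 14127919 counts. Values per library are CPM, counts scaled to a common library total with TMM factors from 0.9134 to 1.0717, and 3 counts, taken as the limit of detection, stood for 0.212 to 0.25 CPM before that scaling. These limits cover counting error only. The 15 neutrophil marker genes summed to between 290000 and 331000 CPM in naive, 290000 and 309000 in one-week and 340000 and 355000 in three-week LL2 mice, most of it from S100a8 (147300 to 228700 CPM per library) and S100a9 (62950 to 80430). The transcript of the selection marker itself, Ly6g, named here after its values were seen, was close to the limit of detection, with 1.108 and 0.4912 CPM in naive, 2.136 and 1.268 in one-week and 1.241 and 0.9229 in three-week LL2 mice, so it gives no check of the selection. Changes are log2 fold changes from edgeR's quasi-likelihood test, fitted to the 6 libraries together and given with their standard error (SE), and a gene was called changed at a Benjamini-Hochberg adjusted p-value under 0.05 over the 12259 genes. Means are given ± SD of the 2 libraries. With 2 libraries per group, the p-values rest on a spread between single mice that the fit estimated over all groups and shared in part across genes. The SE was computed from the log2 fold change and the F statistic of the test, so it is no direct measure of a gene's own spread.

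Compared per length as TPM, the transcripts of the 10 genes fell into a wide range in naive mice. Cxcr4 was highest with 814 ± 21.8 TPM, followed by Fpr2 with 707.6 ± 21.9, Ltb4r1 with 417 ± 3.18 and Cxcr2 with 231.5 ± 14.2. C5ar1 with 165.2 ± 14.5 TPM and Fpr1 with 161.2 ± 1.95 came next, and their libraries overlapped. Ccr1 had 61.78 ± 0.883 TPM, Ptafr 52.93 ± 1.28, Cxcr1 2.532 ± 1.18 and Ccr2 0.5091 ± 0.0491. Apart from C5ar1 and Fpr1, neighbours in this order did not overlap. Among all tested genes of naive mice Cxcr4 ranked 73 and Fpr2 86, whereas Cxcr1 ranked 6673 and Ccr2 10212.

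The order changed with the group. In one-week LL2 mice, Fpr2 (699 ± 35.6 TPM) and Cxcr4 (647.5 ± 86.8 TPM) overlapped at the top, as did Cxcr2 with Fpr1 and Ccr1 with Ptafr further down. In three-week LL2 mice, Fpr2 was highest with 897.7 ± 14.9 TPM, followed by Ltb4r1 with 391.9 ± 16.8. Cxcr2 (330 ± 29.5 TPM) and Cxcr4 (309.2 ± 96.1 TPM) now overlapped each other. Cxcr4 thus went from rank 73 through 104 to 218 among the tested genes, while Cxcr2 went from 281 through 354 to 204.

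**Figure D1:**
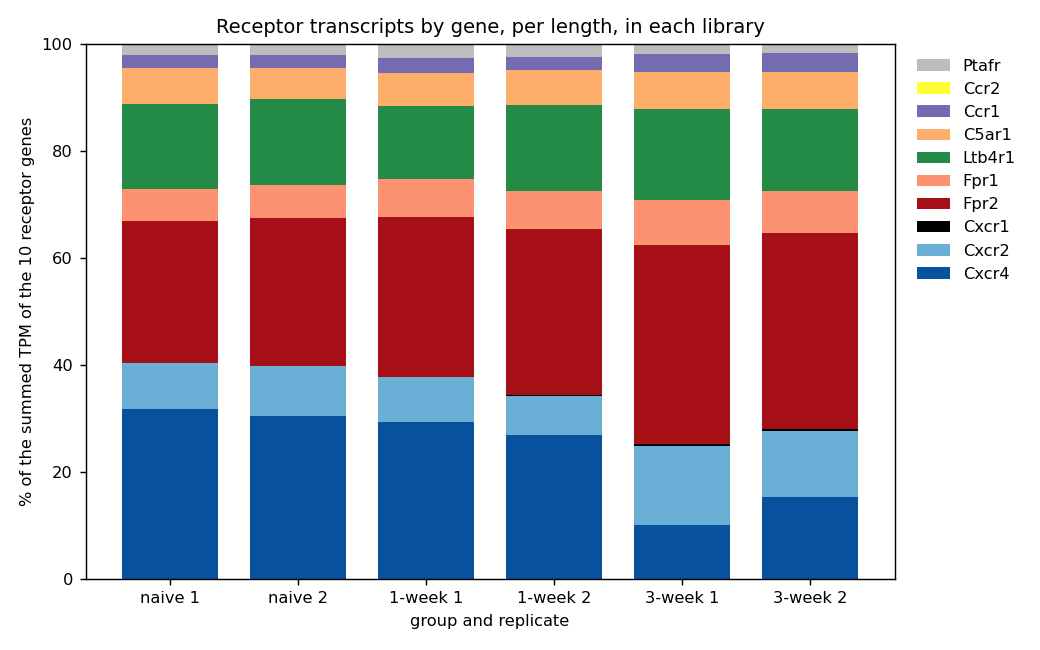
Share of each receptor gene in the summed TPM of the 10 genes (y axis, %), one bar per library (x axis, group and replicate), with colours for genes. Cxcr4 took 26.9% to 31.8% in the naive and one-week libraries and 10.1% and 15.2% in the three-week libraries, while Fpr2 went from between 26.5% and 31% to 37.3% and 36.7%.

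The make-up of the receptor transcripts was read in each library as a share of the summed TPM of the 10 genes. Cxcr4 held 31.8% and 30.5% in naive, 29.3% and 26.9% in one-week and 10.1% and 15.2% in three-week LL2 mice, with both three-week libraries below all others. Cxcr2 held 8.48% and 9.22% in naive, 8.34% and 7.29% in one-week and 14.8% and 12.5% in three-week LL2 mice, with both three-week libraries above all others. The ratio of Cxcr2 to Cxcr4 in TPM was 0.267 and 0.302 in naive mice, 0.285 and 0.271 in one-week LL2 mice and 1.45 and 0.82 in three-week LL2 mice. Cxcr2 thus exceeded Cxcr4 in 1 library, three-week replicate 1. The ratio of Fpr2 to Fpr1 stayed within a narrow range, from 4.19 to 4.73 over the 6 libraries. The summed CPM of the 10 genes was 3230 and 3590 in naive, 2840 and 3060 in one-week and 3620 in both three-week libraries.

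At 1 week, none of the 10 receptor genes was called changed from naive mice (0 called, with 7.99% called among all tested genes, 4.23% higher and 3.76% lower). Without adjustment, 2 of the 10 had a p-value under 0.05, Cxcr2 and Ltb4r1. DESeq2 called 1, which was Cxcr2 with all 6 libraries (adjusted p = 0.0495) and Cxcr4 with only the groups compared (adjusted p = 0.0291). The libraries of 4 receptor genes did not overlap, Cxcr2, Cxcr4, C5ar1 and Ltb4r1, each with both one-week libraries lower, whereas 53.2% of all tested genes had libraries that did not overlap. The median log2 fold change of the 10 was -0.043, beside 0.01 for all tested genes.

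At 3 weeks, 6 of the 10 were called changed from the same naive mice, with 21.4% called among all tested genes. Cxcr1, Cxcr2, Ccr1, Fpr1 and Fpr2 were higher (12% of all tested genes were called higher) and Cxcr4 was lower (9.42% were called lower). The libraries of 7 did not overlap, beside 59.6% of all genes, and the median log2 fold change of the 10 was 0.345 beside 0.035. Without naive replicate 1, only Cxcr4 stayed called of the 6, and the other 5 had adjusted p-values from 0.0554 to 0.124 with log2 fold changes from 0.35 to 1.02.

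When three-week were set against one-week LL2 mice, 8 of the 10 differed, with 22.5% called among all tested genes. C5ar1 and Ltb4r1 joined the 5 that were higher (12.9% of all genes called higher), and Cxcr4 was again lower (9.57% called lower). The libraries of 9 did not overlap, beside 63.8% of all genes, and the median log2 fold change was 0.429 beside -0.023. Without one-week replicate 1, 4 of the 8 were called (Cxcr1, Fpr1, C5ar1 and Ltb4r1 were lost), and without one-week replicate 2 also 4 (Fpr1, Fpr2, C5ar1 and Ltb4r1 were lost). With scaling by library size only, which moved the median of all genes to -0.225, 4 receptor genes were called higher and 2 lower, the second being Ptafr.

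**Figure D2:**
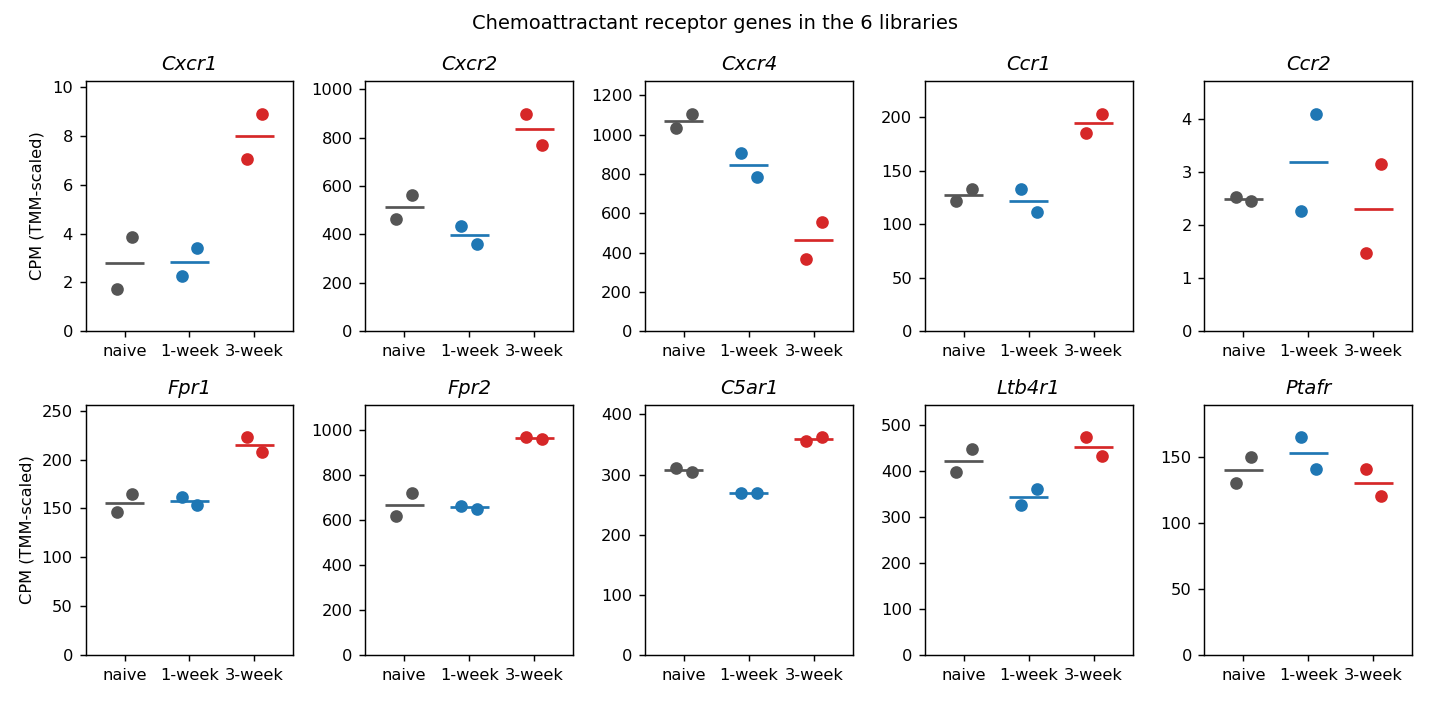
CPM (y axis, from 0, TMM-scaled) of each receptor gene in every library, by group, where points are libraries and lines are means. The three-week libraries of Cxcr1, Cxcr2, Ccr1, Fpr1, Fpr2 and C5ar1 lie above all others and those of Cxcr4 below all others. Those of Ccr2, Ltb4r1 and Ptafr overlap the naive ones.

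Cxcr2 encodes the main receptor of mouse neutrophils for CXCL1, CXCL2 and related chemokines. It had 464.9 and 563.9 CPM in naive mice, 435 and 358.6 in one-week and 899.3 and 768.7 in three-week LL2 mice. Both three-week libraries were above all others, and both one-week libraries were below the naive ones. Cxcr2 was 1.62-fold higher at 3 weeks than in naive mice (log2 fold change 0.70, SE 0.138, adjusted p = 0.00288) and 2.1-fold higher than at 1 week (1.07, SE 0.138, adjusted p = 0.000132). At 1 week the log2 fold change was -0.37 (SE 0.137, adjusted p = 0.114).

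Cxcr1 encodes the related receptor of CXC chemokines. It was at a low level, with 22 and 47 counts in naive, 34 and 46 in one-week and 91 and 116 in three-week LL2 mice. These correspond to 1.741, 3.848, 2.27, 3.431, 7.058 and 8.921 CPM, so that both three-week libraries were above the others while naive and one-week libraries overlapped. Cxcr1 was 2.86-fold higher at 3 weeks than in naive mice (log2 fold change 1.52, SE 0.356, adjusted p = 0.00876) and 2.81-fold higher than at 1 week (1.49, SE 0.351, adjusted p = 0.00825). Its naive libraries were a wide pair, and the log2 fold change against naive mice went from 1.02 to 2.20 when single libraries were left out. Per length, Cxcr2 exceeded Cxcr1 between 42.2-fold and 131-fold over the libraries.

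Cxcr4 encodes the receptor of CXCL12. It had 1033 and 1106 CPM in naive, 906.1 and 786 in one-week and 366.8 and 556.3 in three-week LL2 mice. The groups did not overlap, and each later group was lower. Cxcr4 was 2.32-fold lower at 3 weeks than in naive mice (log2 fold change -1.21, SE 0.165, adjusted p = 0.000228) and 1.83-fold lower than at 1 week (-0.87, SE 0.164, adjusted p = 0.00196). The log2 fold change at 1 week against naive was -0.34 (SE 0.163, adjusted p = 0.233). Both calls at 3 weeks held in all 14 alternative fits, with log2 fold changes from -1.54 to -0.93 and from -1.20 to -0.59. Cxcr4 is also transcribed in B-lineage cells, and all 11 B-lineage markers were called lower at 3 weeks against naive mice (9.42% of all tested genes). These markers had summed levels of 72.2 to 94 CPM in naive, 63.4 to 76.6 in one-week and 16.4 to 25.1 in three-week LL2 mice. Their part in the Cxcr4 result was not tested.

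Ccr1 encodes a receptor of CC chemokines such as CCL3, CCL5 and CCL6. Its levels were 121.8 and 132.7 CPM in naive, 132.8 and 111.1 in one-week and 185.3 and 203.2 in three-week LL2 mice, with only the three-week libraries standing apart. It was 1.53-fold higher at 3 weeks than in naive mice (log2 fold change 0.61, SE 0.124, adjusted p = 0.00356) and 1.59-fold higher than at 1 week (0.67, SE 0.124, adjusted p = 0.00178). Ccr2, the CCL2 receptor that marks inflammatory monocytes, had 19 to 55 counts per library, or 1.474 to 4.102 CPM, and its groups overlapped. Its log2 fold changes of 0.35, -0.11 and -0.45 for 1 week and 3 weeks against naive and between the weeks had adjusted p-values from 0.483 to 0.897. The standard errors of 0.424 to 0.438 are the widest of the members, so a difference of moderate size was not detectable at this depth. Of 13 monocyte and macrophage markers, 3 were called higher and 1 lower at 3 weeks against naive mice (12% and 9.42% of all tested genes). Their summed levels were 953 to 1110, 1070 to 1140 and 1080 to 1110 CPM in the 3 groups.

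Fpr1 and Fpr2 encode formyl peptide receptors, of which FPR2 also binds annexin A1 and serum amyloid A. Fpr1 had 145.8 and 164.9 CPM in naive, 161.9 and 153.6 in one-week and 222.7 and 207.3 in three-week LL2 mice. Fpr2 had 617.9 and 717.7, then 663.5 and 647.8, then 966.7 and 960.2 CPM. In both genes the one-week libraries lay between the naive ones and the three-week libraries stood above all others. Against naive mice, Fpr1 was 1.38-fold higher at 3 weeks (log2 fold change 0.47, SE 0.115, adjusted p = 0.0113) and Fpr2 1.44-fold (0.53, SE 0.113, adjusted p = 0.00489). Against one-week LL2 mice, the rises were 1.36-fold (0.45, SE 0.115, adjusted p = 0.0138) and 1.47-fold (0.56, SE 0.113, adjusted p = 0.00338). With scaling by library size only, Fpr1 was called in neither comparison (adjusted p = 0.0574 and 0.13).

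C5ar1 encodes the receptor of the complement fragment C5a. Its libraries were close within groups, at 310.8 and 305 CPM in naive, 269.9 and 269.1 in one-week and 355.5 and 361.8 in three-week LL2 mice, and no groups overlapped. The difference between the weeks was called, 1.33-fold (log2 fold change 0.41, SE 0.106, adjusted p = 0.0134), whereas 0.22 at 3 weeks (SE 0.106, adjusted p = 0.162) and -0.19 at 1 week (SE 0.106, adjusted p = 0.302) against naive mice were not. With scaling by library size only the difference between the weeks was 0.21 (adjusted p = 0.17).

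Ltb4r1 encodes the high-affinity leukotriene B4 receptor and Ptafr the receptor of platelet-activating factor. Ltb4r1 had 398.3 and 447.6 CPM in naive, 325.8 and 361.7 in one-week and 473.3 and 432.1 in three-week LL2 mice, where the one-week libraries were the lowest and the other groups overlapped. It was 1.32-fold higher at 3 weeks than at 1 week (log2 fold change 0.40, SE 0.117, adjusted p = 0.0267), a call that was lost with scaling by library size only (0.20, adjusted p = 0.208). Against naive mice its log2 fold changes were -0.30 at 1 week (adjusted p = 0.137) and 0.10 at 3 weeks (adjusted p = 0.608). Ptafr had 130.3 and 150 CPM in naive, 164.7 and 141 in one-week and 140.5 and 120.3 in three-week LL2 mice, and only the tumor groups did not overlap each other. It was called in none of the comparisons, with log2 fold changes of 0.13, -0.10 and -0.23 (adjusted p = 0.618, 0.627 and 0.229).

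**Figure D3:**
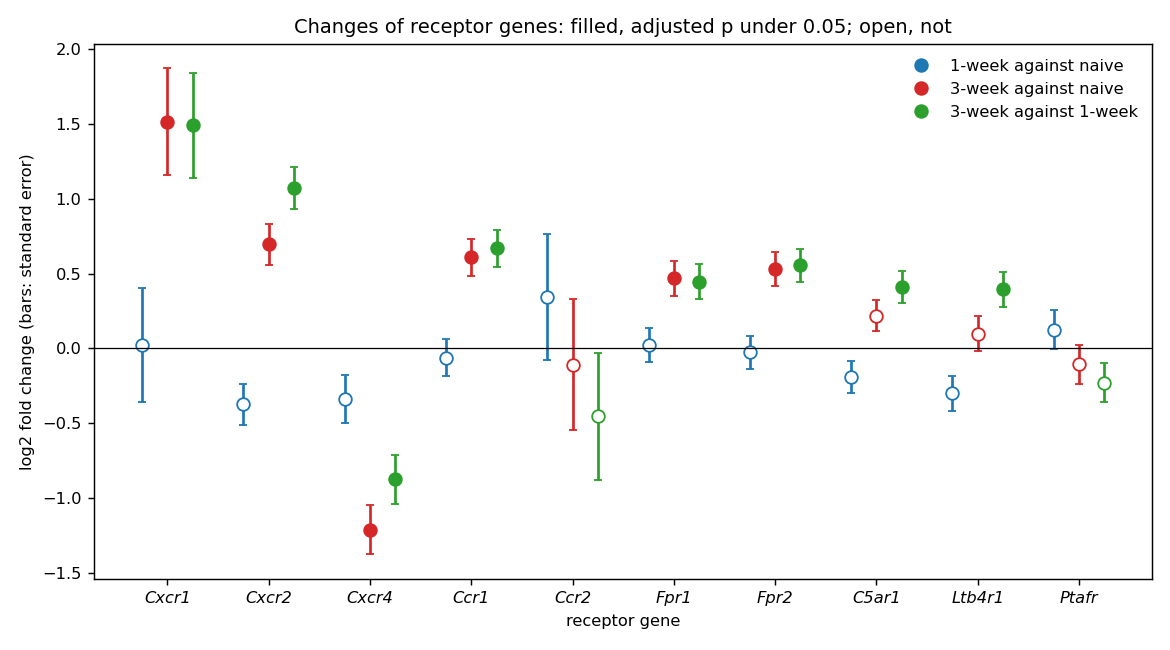
Log2 fold change of each receptor gene (y axis, bars are standard errors) in the 3 comparisons (colours), with filled points for an adjusted p-value under 0.05. All points of 1 week against naive are open, and Cxcr4 at -1.21 and -0.87 is the one gene with filled points below 0.

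The genes nearest in pattern were found from the log2 CPM of each gene centred on its mean over the 6 libraries, by the root-mean-square difference. For Cxcr2 these were Trim30a (0.046, Pearson's r 0.995), Tnfrsf1b (0.067), a receptor gene for tumor necrosis factor, and Il20rb (0.069). For Cxcr4 they were Cmpk2 (0.087, r 0.989), Prr12 (0.095) and Trp53i13 (0.097). For Ccr1 they were Inpp5j (0.037, r 0.993), Rnf149 (0.048) and March7 (0.053). With 6 libraries in 3 groups and 12259 genes to choose from, these are descriptions only.

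Other genes that act with the receptors were read from lists, for which the number of tested genes and of calls is given at 3 weeks against naive mice. In that comparison 12% of all tested genes were called higher and 9.42% lower. Of 30 other chemoattractant receptor genes, 16 were tested, 1 was higher and 3 were lower, with a median log2 fold change of -0.129, and 7 had 0 counts in every library. The lower ones were Ccr7 (log2 fold change -2.90, adjusted p = 0.000894), which guides lymphocytes and dendritic cells to lymph nodes, the fractalkine receptor gene Cx3cr1 (-1.59, adjusted p = 0.00197) and the sphingosine 1-phosphate receptor gene S1pr1 (-1.17, adjusted p = 0.0157). Ccr7 was low throughout, with 2.532 and 3.356 CPM in naive, 2.537 and 3.282 in one-week and 0.3878 and 0.3845 in three-week LL2 mice. C5ar2, the second C5a receptor gene, was the 1 gene of this list called at 1 week, where it was higher (0.53, adjusted p = 0.0381), while its change at 3 weeks was -0.05 (adjusted p = 0.855). At 1 week 4.23% of all tested genes were called higher.

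Of 26 genes for ligands or for enzymes that make or degrade them, 24 were tested. At 3 weeks 9 were higher and 8 lower (12% and 9.42% of all tested genes), with a median of 0.137. Cxcl2, a ligand of CXCR2, had 955.1 and 664.7 CPM in naive, 703.8 and 562.4 in one-week and 3042 and 1888 in three-week LL2 mice. Both three-week libraries were far above the rest (log2 fold change 1.61, adjusted p = 0.000189). Alox5ap, which is needed to make leukotrienes, rose from 496.1 and 654.1 CPM in naive to 2067 and 1547 in three-week LL2 mice (1.65, adjusted p = 1.28e-05). Pla2g7, which degrades platelet-activating factor and so is not a gene of ligand synthesis, was also higher (1.31, adjusted p = 3.55e-05). Of the other leukotriene genes in the list, Alox5 was not called (0.17, adjusted p = 0.332) and Lta4h was lower (-0.57, adjusted p = 0.0131). Both were named after their values were seen. Anxa1, a ligand gene for the formyl peptide receptors, was higher at both times, from 311.2 and 323.9 CPM in naive to 773.1 and 474.4 in one-week (0.97, adjusted p = 0.00568) and 949.1 and 925.8 in three-week LL2 mice (1.56, adjusted p = 5.31e-05). A further pair was chosen after their values were seen. Cxcl12, the CXCR4 ligand made by stromal cells, went from 8.546 and 8.186 CPM in naive through 9.879 and 8.577 to 2.482 and 1.307 (-2.14, adjusted p = 0.000225). Saa3, for a serum amyloid A, had 0 counts in both naive libraries, 0.06675 and 0 CPM at 1 week and 4.033 and 4.384 at 3 weeks. Its fitted change depends on the prior count and is the highest point in the plot of the gene lists.

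Downstream of the receptors, 25 of 26 genes listed for Gi signalling were tested, with 0 higher and 1 lower at 1 week and 4 higher and 1 lower at 3 weeks against naive mice. Of all tested genes, 4.23% were called higher and 3.76% lower at 1 week, and 12% and 9.42% at 3 weeks. The list also holds Gna13 and Gna15, for Gα subunits of other classes than Gi. Neither was called at 3 weeks against naive mice (0.24, adjusted p = 0.173, and -0.41, adjusted p = 0.174). Both were named after their values were seen. Gnb2, for a β subunit, was the 1 lower at 1 week, at 940.7 and 815.6 CPM in naive, 512.6 and 484.2 in one-week and 1054 and 967.7 in three-week LL2 mice (-0.82 at 1 week, adjusted p = 0.00175, and 0.20 at 3 weeks, adjusted p = 0.241). Gnb1, another β subunit gene, was higher at 3 weeks (0.37, adjusted p = 0.0341), as was Gng2, for a γ subunit (0.82, adjusted p = 0.000398). Between the weeks, 9 genes of this list were higher and 3 lower (12.9% and 9.57% of all tested genes). Of 18 genes listed for desensitisation, 17 were tested, with 6 higher and 6 lower at 3 weeks (12% and 9.42% of all tested genes) and a median of -0.281. Most encode arrestins, receptor kinases or RGS proteins, which end the signal, but the list also holds Ric8a, a chaperone and exchange factor of Gα subunits, which was among the higher genes (0.64, adjusted p = 0.0105), and Ccdc88a, an activator of Gi (-0.33, adjusted p = 0.311). These 2 were named after their values were seen. The receptor kinase gene Grk6 (0.63, adjusted p = 0.00176) and Rgs3 (0.91, adjusted p = 0.000219) were higher, and Rgs2 (-0.74, adjusted p = 0.00262) and Arrb1, for β-arrestin 1 (-0.34, adjusted p = 0.0473), were lower.

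**Figure D4:**
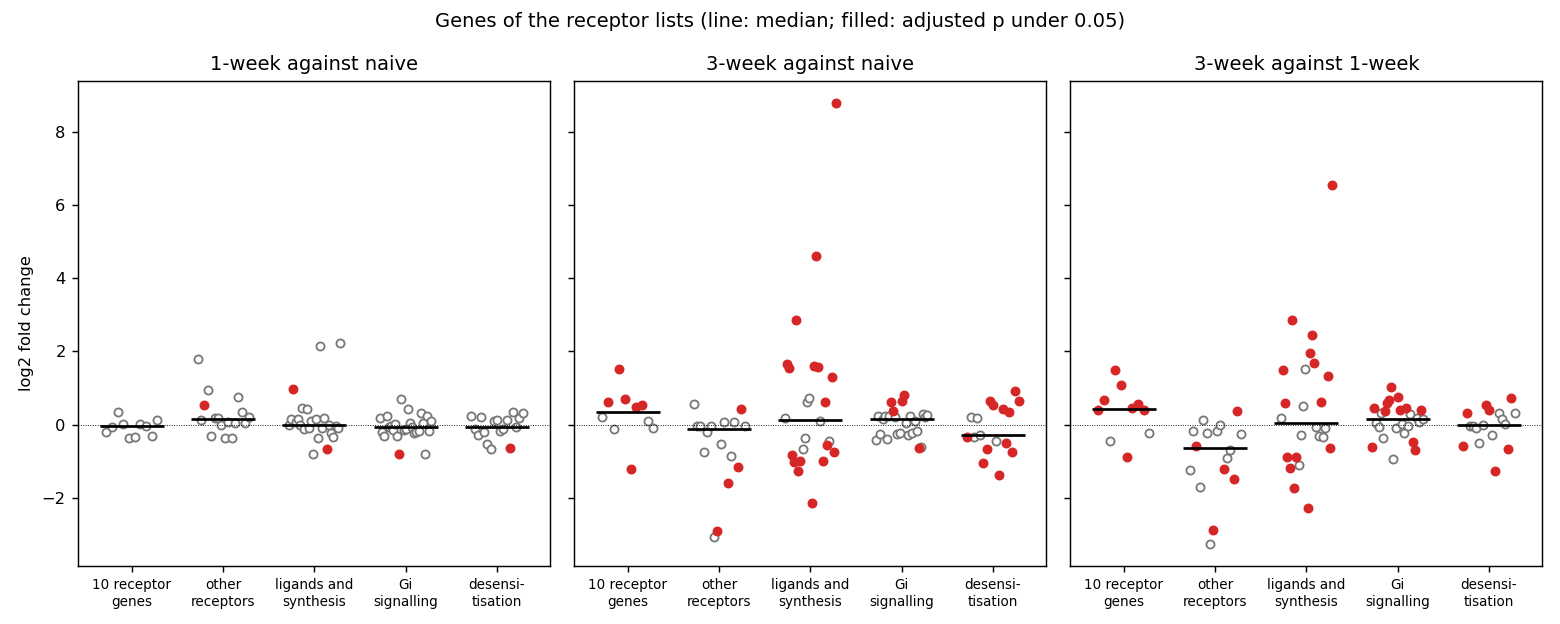
Log2 fold changes (y axis) of the tested genes of the receptor lists in the 3 comparisons (panels), one point per gene, filled at an adjusted p-value under 0.05, with a line at each median. At 3 weeks against naive mice the medians are 0.345 for the 10 receptor genes, -0.129 for other receptors, 0.137 for ligands, 0.163 for Gi signalling and -0.281 for desensitisation.

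Markers of other cells and of earlier granulocyte stages moved at the same time. At 3 weeks against naive mice, 12% of all tested genes were called higher and 9.42% lower. Of 11 genes counted as early granulocyte markers, 5 were higher and 2 lower at 3 weeks against naive mice. Their summed levels were 966 to 1110 CPM in naive and 1130 to 1240 in three-week LL2 mice. Most of each sum came from Cd63, with 781.4 and 923.5 CPM in naive and 796.3 and 801.5 in three-week LL2 mice (not called, adjusted p = 0.623). The count and sums include ENSMUSG00000001379, an identifier without a gene symbol that is no known marker. It entered by a matching error for a marker not found by name. It had means of 3.752 CPM in naive and 4.555 in three-week LL2 mice and was not called (adjusted p = 0.6). Among the higher genes were Prtn3 (log2 fold change 3.23, adjusted p = 3.52e-06) and Ctsg (2.91, adjusted p = 3.58e-05). Cebpe was among the lower ones (-0.99, adjusted p = 8.49e-05). Mpo, which encodes myeloperoxidase and is transcribed early in granulocyte development, had 34.9 and 23.33 CPM in naive, 29.17 and 47.81 in one-week and 119.2 and 167.3 in three-week LL2 mice (log2 fold change 2.30, adjusted p = 2.73e-05). Of the 15 neutrophil markers, 2 were higher and 3 lower, among the latter Camp, a granule gene whose product is also a ligand of FPR2 (-1.04, adjusted p = 0.000173). Of 8 tested basophil, eosinophil and mast cell markers, 4 were lower at 3 weeks, with sums of 83.2 to 89.7 CPM in naive, 110 to 111 in one-week and 39.8 to 43 in three-week LL2 mice. T and NK cell markers summed to 17 to 19.8, 21.7 to 38.6 and 12.6 to 14.3 CPM. Erythroid markers summed to 1210 to 1360, 1320 to 1520 and 578 to 1350 CPM, and megakaryocyte markers to 188 to 201, 159 to 184 and 132 to 149. The part of these cells in the receptor results was not tested.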

How the data were processed

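RNA-seq libraries of Ly6G-selected bone marrow cells were analysed, 2 per group in 3 groups. The authors deposited expected counts (RSEM's estimates, in whole numbers) that were not scaled between libraries. The submitters' processing notes name Bowtie2, RSEM 1.2.31, DESeq2 and mm10. The strand setting is not given in the sources used here. The paper gives another read length and RSEM version than the labels and notes, and its legend another number of RNA-seq samples per group than the 2 analysed here.

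Counts were filtered by filterByExpr, scaled by TMM and tested in edgeR 4.0.16 (R 4.3.3) by its quasi-likelihood test, with the group as the only factor and Benjamini-Hochberg adjustment over 12259 genes. The same naive libraries serve both comparisons with naive mice. TPM used summed exon lengths from GENCODE, with 37570 of 38887 identifiers matched. It served to compare genes within libraries, and the resulting ranks, shares and ratios were then set side by side between groups.

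The receptor genes and all lists were chosen with earlier results of these data known. The genes named are the 10 receptors, up to 4 genes with the smallest adjusted p of each other list, the marker genes with the highest levels and the 3 genes nearest in pattern to Cxcr2, Cxcr4 and Ccr1. Alternatives were DESeq2 1.42.0 on all libraries or on each pair of groups, edgeR on each pair of groups, other scaling, filters and thresholds, a replicate block and leaving out single libraries.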

Additional observations from a re-analysis of the deposited data

Results flagged for a closer look

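For 8 receptor genes the change against naive mice differed between the weeks, by edgeR's test of three-week against one-week LL2 mice, in which the naive libraries cancel and 22.5% of all tested genes were called. The log2 difference, 3 weeks minus 1 week, was 1.49 for Cxcr1, 1.07 for Cxcr2, 0.67 for Ccr1, 0.56 for Fpr2, 0.45 for Fpr1, 0.41 for C5ar1, 0.40 for Ltb4r1 and -0.87 for Cxcr4. In each of these 8 genes both three-week libraries lay on one side of both one-week libraries, as they did in 63.8% of all tested genes.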

How the results depend on the processing

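Of 420 values of single receptor genes under 14 alternative fits, 379 kept their direction and their side of the threshold, 21 lost a call, 4 gained one and 16 reversed, none of the latter called in the results given above. At 1 week, 1 receptor gene was called instead of 0 with DESeq2 on all libraries, with DESeq2 on the groups compared and without the filter. A change over 5-fold was met by 0 receptor genes at 3 weeks against naive mice and by 0 between the weeks, where a threshold of 0.01 left 5. With single libraries left out, the receptor genes called ranged from 1 (without naive replicate 1) to 6 at 3 weeks and from 4 to 8 between the weeks, where three-week replicate 1 left 6 and replicate 2 left 7. Over all genes, calls at 1 week were 1537 without the filter, 274 at 0.01, 92 over 5-fold and 147 to 1145 with single libraries left out. At 3 weeks they were 1668 with DESeq2 on the groups compared, 1339 at 0.01, 208 over 5-fold and 1362 to 2392, and between the weeks 1481, 196 and 1502 to 2725. The cause of these differences beyond fewer genes or libraries was not tested.

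Scaling by library size only moved the median log2 fold change of all genes from 0.01 to 0.065, from 0.035 to -0.112 and from -0.023 to -0.225 in the 3 comparisons. With it, 890 of 2565 calls were higher at 3 weeks and 856 of 2992 between the weeks, Fpr2 at 1 week reversed to 0.0314 and Ltb4r1 at 3 weeks to -0.0478. With DESeq2 on all libraries Fpr1 at 1 week was -0.0011. With single libraries left out, the values at 1 week ranged from -0.44 to 0.70 for Cxcr1, -0.20 to 0.0599 for Ccr1, -0.14 to 0.71 for Ccr2, -0.0666 to 0.11 for Fpr1 and -0.13 to 0.0836 for Fpr2. At 3 weeks against naive they ranged from -0.75 to 0.35 for Ccr2, -0.0153 to 0.19 for Ltb4r1 and -0.23 to 0.0089 for Ptafr, and between the weeks from -1.09 to 0.0069 for Ccr2.

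The replicate numbers denote different mice, and the deviations of same-numbered libraries correlated at 0.021 to 0.032 across genes, so no pairing was used. A block for the replicate number left 0, 6 and 8 receptor genes called and changed no call. Depth limits Cxcr1 and Ccr2, at 19 to 116 counts per library.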
